A study of Rattus norvegicus with 10 samples.

Results

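The genes described here are the 164 genes, of 17168 in the deposited table, whose symbol is Zfp followed only by a number. The rule that picks them uses the symbol alone, but it was set with earlier results of these data known. All 164 matched a RefSeq gene of the GRCr8 rat assembly, 155 by symbol and 9 by synonym. Of these genes, 163 had enough reads to be tested, and the remaining gene, Zfp352, had a count of 0 in every library. The name is broader than the label of transcription factor: Zfp36 is an RNA-binding protein, Zfp598 a ubiquitin ligase on ribosomes and Zfp207 a spindle protein, and several members now carry other names, such as Zfp238, which is Zbtb18.

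Most members code for proteins with C2H2 zinc fingers, small folds held by a zinc ion that read bases of DNA. Many also carry a KRAB box, which binds the corepressor Trim28. Trim28 in turn brings Setdb1, which methylates histone H3 on lysine, HP1 proteins, and the NuRD complex, whose catalytic subunits include the histone deacetylases Hdac1 and Hdac2. These proteins silence transposable elements, keep imprints and repress genes, and their genes tend to lie side by side in the genome.

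Left hippocampi were taken from 10 male TgF-344AD rats, all 11 months old, and each gave 1 RNA sequencing library. TgF-344AD rats carry human transgenes and serve as a model of Alzheimer's disease; what drives the transgenes is not given in the sources used here. The untreated group (n = 5) had chow without drug. The RG2833 group (n = 5) had chow with RG2833, which inhibits HDAC1 and HDAC3, at 750 mg per kg of feed, from an age of 5 months and over the following 6 months. The sentence of the design text on this timing names ibudilast, whereas the title and the treatment of every sample name RG2833. Both groups are transgenic and male, and the comparison asks how the drug changes expression.

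Libraries held from 15118203 to 18533520 expected counts, of which the Zfp genes took 0.460% ± 0.0145 without drug and 0.449% ± 0.00849 with it (here and throughout, mean ± SD over 5 rats). Hippocampal markers were present. All 8 neuronal genes looked up were tested, with a summed level from 4652 to 6205 CPM. All 6 genes of CA1 pyramidal cells were tested, and 6 of the 7 genes of dentate granule cells in the table. Choroid plexus genes set 2 libraries apart: the sums over their 12 genes were 8402 CPM (untreated replicate 2) and 9717 CPM (RG2833 replicate 1), against 11.5 to 299.7 CPM elsewhere. Untreated replicate 3 stood apart in microglial genes, with 1126 CPM against 612 to 914 CPM. It was also lowest for some hippocampal markers. Of the dentate genes, Prox1 was at 4.30 CPM against 21.5 to 50.5 CPM and C1ql2 at 7.10 CPM against 38.2 to 142.0 CPM. Of genes of CA3 pyramidal cells, Grik4 was at 29.5 CPM against 59.1 to 137.3 CPM and Cpne4 at 66.3 CPM against 73.9 to 287.5 CPM. The dentate gene Calb1 was highest there (90.6 CPM), and the CA3 gene Nnat was within the range of the others (554.4 CPM). In whole tissue, fewer cells of a type and less RNA per cell cannot be told apart.

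No Zfp gene was called different between RG2833 and untreated rats. At an adjusted p under 0.05 in edgeR's quasi-likelihood test, 0 of 163 were called, where 0% of all 12161 genes tested were. DESeq2 called 6 genes and limma-voom 0, with 0 members in either. At an unadjusted p under 0.05, 7 members were lower in RG2833, which is 4.29% of them against 2.71% of all genes, and 1 was higher, which is 0.613% against 2.94%. In either direction the share was 4.91%, close to the 5.66% over all genes. The lower members were Zfp133, Zfp94, Zfp61, Zfp281, Zfp105, Zfp418 and Zfp692, and the higher one was Zfp709. These counts moved when single libraries were left out. Leaving out RG2833 replicate 4 gave 3 lower members (1.72% of all genes), leaving out RG2833 replicate 3 gave 4 (2.22%), and leaving out RG2833 replicate 5 also gave 4 (1.98%). Without untreated replicate 3 there were 10 lower and 5 higher members, against 4.96% and 9.24% of all genes. The higher members numbered 2 without untreated replicate 4 (2.33% of all genes) and 0 without untreated replicate 5 (2.1%). Without the 2 libraries rich in choroid plexus RNA, 7 were lower and 0 higher, against 2.3% and 2.6%. By limma-voom 13 were lower and 3 higher, against 4.42% and 5.97%.

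**Figure D1:**
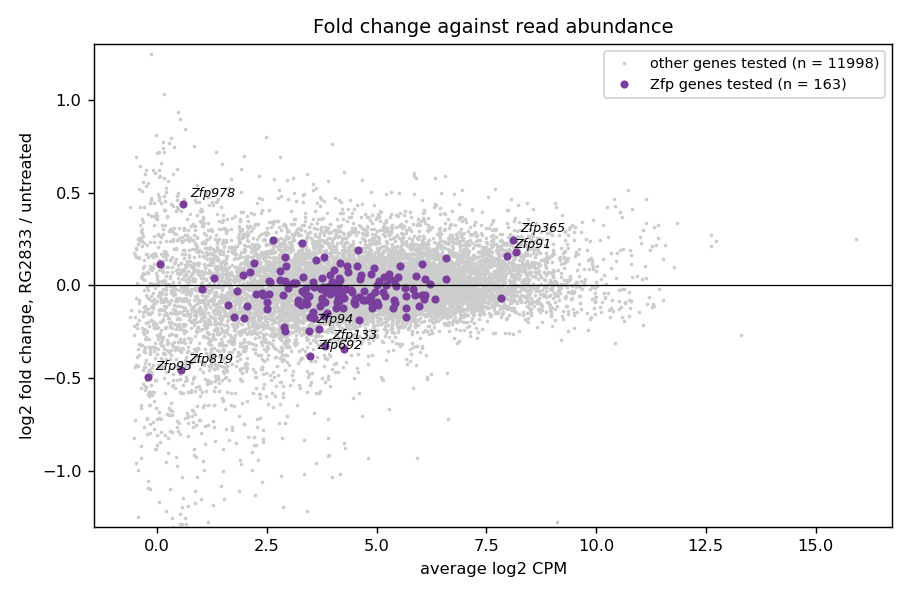
Log2 fold change of RG2833 over untreated (vertical axis) against average log2 CPM (horizontal axis) for the 163 Zfp genes tested, as large points, and the other genes tested, as small points; 26 other genes lie outside the vertical axis, which stops at 1.3 on either side. The Zfp genes lie close to 0, and those farthest from it, Zfp93, Zfp819 and Zfp978, have few reads.

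The fold changes of the Zfp genes were small and lay slightly below 0. Their median log2 fold change was -0.03, against -0.01 over all genes, and 105 of 163 were below 0, which is 64.4% against 53.5% of all genes. Some marker lists also lay to one side of 0: all 10 astrocyte genes were above it (median 0.33, 3 of them higher at an unadjusted edgeR p under 0.05) and 7 of 8 neuronal genes below it (median -0.08). Of the interneuron genes 6 of 8 were below 0 (median -0.11), with 2 lower, Sst and Npy, and 1 higher at such a p, and of the neocortical genes 3 of 6 were above 0, with 2 higher. Of the CA1 pyramidal cell genes 5 of 6 were above 0 (median 0.25, 1 of them higher at such a p), as were 7 of 9 endothelial genes (median 0.25). The part of these lists in the values of the Zfp genes was not tested. The members lay closer to 0 than the table as a whole. Their fold change was within 1.1-fold for 135, or 82.8%, against 67% of all genes, and beyond 1.2-fold for 6, or 3.68%, against 11.8%. By more than 1.1-fold, 18 members were below and 10 above the untreated level, or 11% and 6.13%, against 17.4% and 15.6% of all genes. The 6 beyond 1.2-fold were Zfp133, Zfp61, Zfp692, Zfp93, Zfp819 and Zfp978. The median standard error of a member's log2 fold change was 0.10, so that a typical fold change of the group was smaller than its own error. The median biological coefficient of variation, the spread between rats beyond counting noise, was 12.6% for members and 14.4% for all genes. The 29 tested genes of the related Zbtb family had a median of -0.06, with 18 below 0, and the 4 tested Zscan and Zkscan genes a median of 0.04, with 1 below 0.

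**Figure D2:**
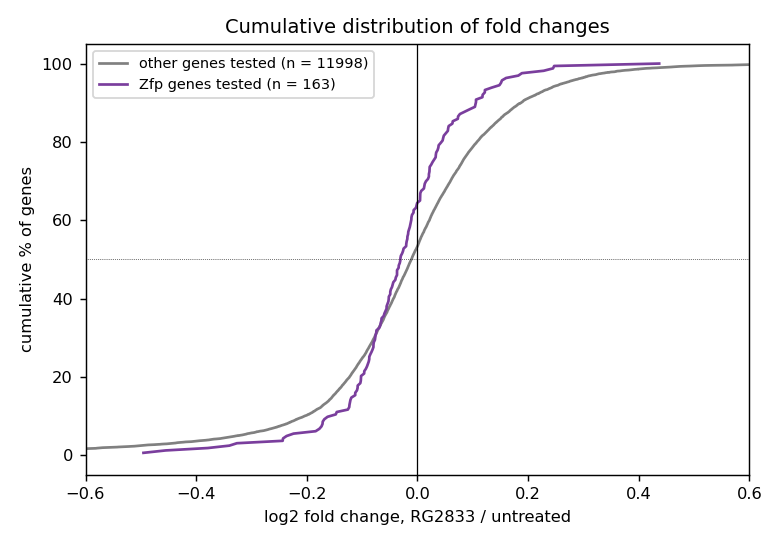
Cumulative percentage of genes (vertical axis) with a log2 fold change up to the value on the horizontal axis, for the 163 Zfp genes and the other genes tested. The curve of the Zfp genes is the steeper of the 2 and crosses 0 at 64.4%.

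Over the whole set of Zfp genes, the libraries of the groups overlapped. The median deviation of the 163 genes from their own mean over 10 libraries, on the log2 scale, was 0.032, 0.052, -0.036, 0.0075 and 0.024 in untreated replicates 1 to 5. In RG2833 replicates 1 to 5 it was 0.0025, -0.040, 0.054, -0.051 and -0.0080. RG2833 replicate 3 was the highest of all, and untreated replicate 3 was below 3 of the 5 treated libraries. The share of members below their own mean was 63.8% and 64.4% in RG2833 replicates 2 and 4 and 57.7% in untreated replicate 3. It ran from 39.3% to 50.9% in the other 7 libraries. Across all genes the same share ran from 44.2% to 52.7%.

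**Figure D3:**
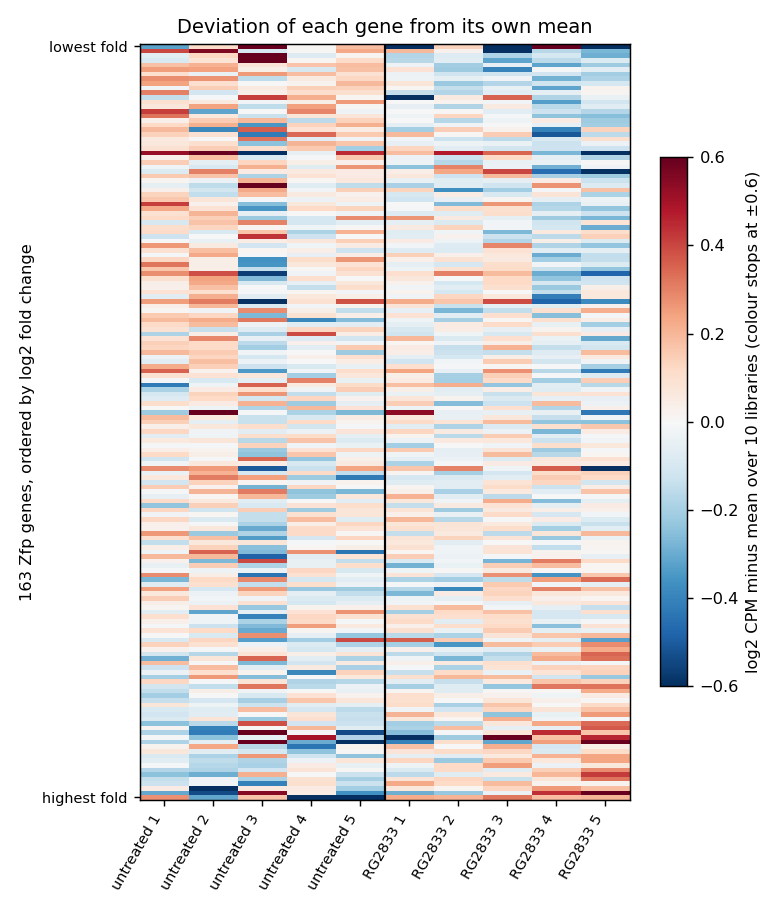
Deviation of each of the 163 Zfp genes (rows, ordered from the lowest to the highest log2 fold change) from its own mean log2 CPM in each of the 10 libraries (columns, untreated left of the line, RG2833 right of it). The order of rows was set by the same values, so the contrast at the top and bottom edges follows from it; untreated replicate 3 holds both the lowest value of 40 genes and the highest of 33.

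Among the lower members, Zfp133, a KRAB zinc finger gene, had the smallest p. It was at 15.8, 16.2, 14.7, 15.7 and 15.9 CPM in untreated replicates 1 to 5 and at 13.7, 12.1, 13.5, 11.2 and 12.03 CPM in RG2833 replicates 1 to 5. Every treated rat lay below every untreated one. Non-overlapping groups with lower values in RG2833 occurred for 2 members, 1.23% of them against 0.584% of all genes, and with higher values for 0 members against 0.419%. The log2 fold change of Zfp133 was -0.33 (SE 0.07), with an unadjusted edgeR p of 0.00110, an adjusted p of 0.841 and an exact permutation p of 0.00794, the smallest that 5 against 5 rats can give. Over 19 alternatives its log2 fold change ran from -0.36 to -0.29 and its adjusted p from 0.267 to 1.00.

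The other member whose groups did not overlap was Zfp692, which codes for a repressor of gluconeogenic genes. It was at 10.3, 11.8, 19.3, 10.2 and 10.9 CPM in untreated rats and at 9.55, 10.2, 9.47, 10.0 and 8.78 CPM in RG2833 rats. Untreated replicate 3 was far above all others, and the lowest untreated and highest RG2833 values were both 10.2 CPM. Its log2 fold change was -0.38 (SE 0.17; edgeR adjusted p = 0.841), and -0.17 without untreated replicate 3. Fractional counts, which arise where reads were divided between similar genes, were given for Zfp692 in 5 libraries.

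Zfp61 and Zfp94 are direct neighbours among the protein-coding genes of GRCr8, and both were lower. Zfp94 was at 11.6, 10.5, 12.9, 12.3 and 11.5 CPM in untreated and at 10.5, 9.94, 9.91, 9.96 and 9.34 CPM in RG2833 rats. Only untreated replicate 2 and RG2833 replicate 1 met, at 10.5 CPM each, and the log2 fold change was -0.24 (SE 0.08; edgeR unadjusted p = 0.00934, adjusted p = 0.841). They are also the 2 libraries with the highest sums of choroid plexus genes; without them the log2 fold change was -0.31, and the part of that RNA in the levels of Zfp94 was not tested. Zfp61 was at 17.7, 19.9, 30.0, 18.98 and 20.4 CPM in untreated and at 16.7, 17.9, 15.1, 16.8 and 17.8 CPM in RG2833 rats. As for Zfp692, untreated replicate 3 was far above the rest; the log2 fold change was -0.34 (SE 0.14), and -0.19 without that library. Counts of Zfp94 were fractional in 9 libraries and those of Zfp61 in 0.

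The stretches before the starts of these genes are shown because all had lower levels in RG2833 rats at an unadjusted p under 0.05, and because those of Zfp692 and Zfp94 hold a box found in few promoters. Each is the 250 bases before the RefSeq start, 5′ to 3′ along the gene, in build GRCr8. The sequences are from RefSeq. Capitals mark the letters TACANTTCC or TTCCCAGAA, on either strand, which are parts of the site bound by Zfp143, a zinc finger activator that is itself a member. Zfp692 lies at chr10:42988696-42988945 on the plus strand. Zfp94 lies at chr1:89007516-89007765 and Zfp61 at chr1:88985660-88985909, both on the minus strand. Zfp281 lies at chr13:50647572-50647821 on the plus strand and is shown as a lower member with no box.
Zfp692: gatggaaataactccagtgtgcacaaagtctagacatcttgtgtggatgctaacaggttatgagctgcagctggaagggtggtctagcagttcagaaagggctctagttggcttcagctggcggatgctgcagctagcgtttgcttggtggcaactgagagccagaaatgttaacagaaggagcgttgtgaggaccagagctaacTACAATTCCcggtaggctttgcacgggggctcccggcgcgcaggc
Zfp94: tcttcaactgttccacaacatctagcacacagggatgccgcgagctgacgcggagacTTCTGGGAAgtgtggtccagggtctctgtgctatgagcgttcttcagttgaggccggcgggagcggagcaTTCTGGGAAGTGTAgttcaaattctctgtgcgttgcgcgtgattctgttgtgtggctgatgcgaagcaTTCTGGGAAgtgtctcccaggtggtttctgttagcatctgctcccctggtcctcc
Zfp61: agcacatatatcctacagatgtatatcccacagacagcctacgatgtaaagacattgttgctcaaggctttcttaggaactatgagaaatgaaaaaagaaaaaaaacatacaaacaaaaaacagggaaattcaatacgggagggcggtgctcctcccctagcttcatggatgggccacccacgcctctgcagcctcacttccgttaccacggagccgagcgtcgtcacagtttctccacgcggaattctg
Zfp281: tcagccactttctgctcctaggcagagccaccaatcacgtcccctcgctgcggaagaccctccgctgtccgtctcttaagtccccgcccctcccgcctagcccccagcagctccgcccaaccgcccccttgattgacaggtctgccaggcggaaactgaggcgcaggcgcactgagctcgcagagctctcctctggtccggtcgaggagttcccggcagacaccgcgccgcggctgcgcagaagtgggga

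Zfp692 holds 1 box, 36 bases before the start. Zfp94 holds 4, of which a pair overlaps, and Zfp61 and Zfp281 hold 0, as do Zfp105 and Zfp418, which are not shown. Of the 6 lower members with a window, 2 thus hold a box and 4 do not. The letters searched were chosen after the expression values were seen. Over all Zfp genes, 135 had a window in the RefSeq table. The letters TACANTTCC, searched as all others on both strands, occurred in 14 of their 143 windows, or 9.79%, against 2% of 21851 windows of protein-coding genes, and TTCCCAGAA in 7, or 4.9%, against 1.08%. The windows of Zfp genes were also richer in CpG, with a median observed over expected ratio of 0.67 against 0.50, and in G and C, with 57.2% against 54%. Among other letters, CCGGAAGT, the core of ETS sites, occurred in 8.39% against 3.94%, GGGCGG in 44.8% against 38.9%, TGACGTCA in 3.5% against 1.89%, and TATAAA in 8.39% against 12.1%. ATGGCGGC, the core of YY1 sites, occurred in 3.5% against 1.27%, and GCATGCGC, part of the NRF1 site, in 6.29% against 2.84%.

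The 14 members with either box had values on both sides of 0. Of these, 9 had a log2 fold change below 0, led by Zfp692, Zfp94 and Zfp428, and 5 above 0, namely Zfp317, Zfp879, Zfp2, Zfp458 and Zfp180. The share below 0 was 64.3%, against 62.5% of the 120 tested members with a window and no box, and the medians were -0.07 and -0.03. Zfp143 itself had 11.5 ± 0.89 CPM without drug and 11.7 ± 0.70 CPM with it. The difference was smaller than the spread between rats.

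Zfp281, a GC-box binding factor that restrains pluripotency genes, was at 23.8, 26.6, 25.01, 26.6 and 26.5 CPM in untreated rats. In RG2833 rats it was at 24.3, 21.8, 23.3, 19.3 and 24.4 CPM. Of the RG2833 values, 2 lay above the lowest untreated value, and the log2 fold change was -0.18 (SE 0.08; edgeR unadjusted p = 0.0336). Its paralog Zfp148 averaged 67.0 ± 7.08 CPM without and 64.6 ± 7.14 CPM with the drug (log2 fold change -0.05, SE 0.09), with groups that overlapped. Zfp105 was at 8.66, 7.84, 7.28, 7.41 and 8.36 CPM in untreated and at 7.68, 6.25, 6.46, 6.70 and 6.78 CPM in RG2833 rats, and only RG2833 replicate 1 reached the untreated range. Zfp418 was at 15.5, 15.4, 11.5, 13.2 and 13.9 CPM in untreated and at 12.5, 12.3, 12.5, 10.5 and 11.2 CPM in RG2833 rats. Here untreated replicate 3 was the one untreated library within the RG2833 range. The log2 fold changes were -0.22 (SE 0.09) for Zfp105 and -0.24 (SE 0.10) for Zfp418, and the edgeR adjusted p was 0.841 for Zfp281, Zfp105 and Zfp418. Zfp46, next in order, averaged 54.2 ± 4.02 CPM without and 48.1 ± 4.58 CPM with the drug (log2 fold change -0.17, SE 0.08; -0.11 without RG2833 replicate 4).

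**Figure D4:**
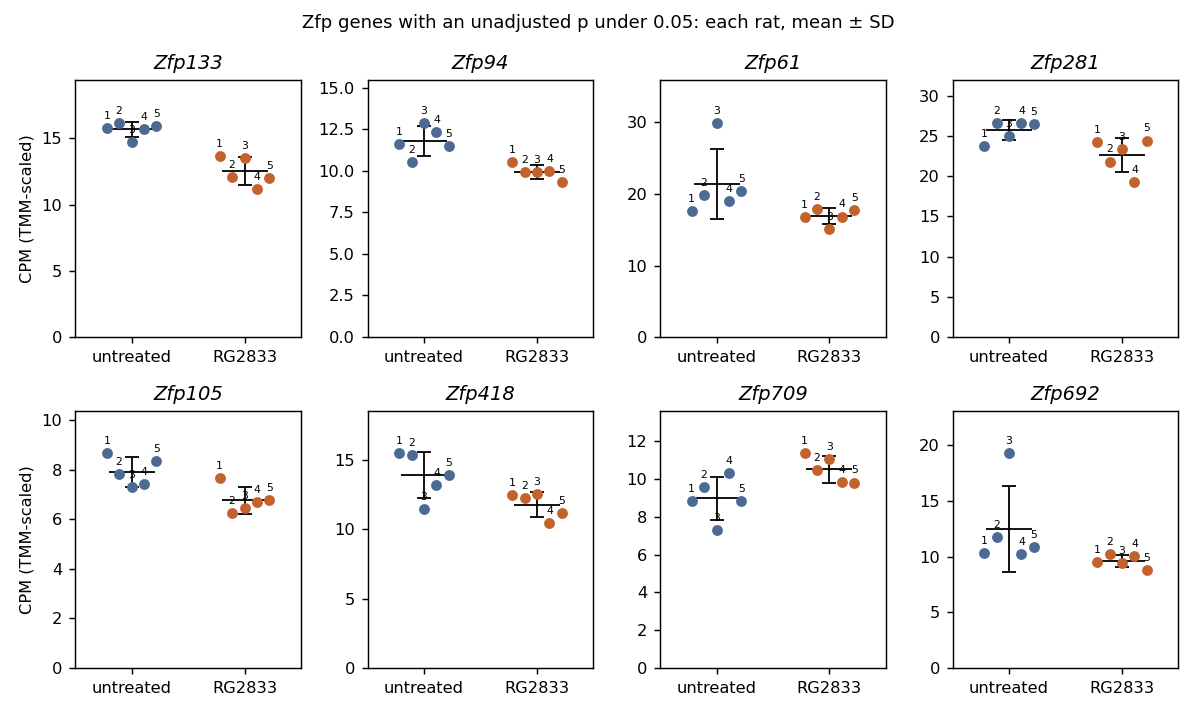
CPM on the TMM-scaled library size (vertical axes, from 0) of the 8 Zfp genes with an unadjusted p under 0.05 in each rat, numbered by replicate, in untreated and RG2833 rats; the line and bars are the mean ± SD (n = 5 each). The groups of Zfp133 are clear of each other, whereas untreated replicate 3 alone is high for Zfp61 and Zfp692.

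Among members that were higher in RG2833, Zfp709 had the smallest p. It was at 8.83, 9.58, 7.28, 10.3 and 8.85 CPM in untreated and at 11.4, 10.5, 11.1, 9.83 and 9.82 CPM in RG2833 rats. Untreated replicate 4 lay among the treated values, and the log2 fold change was 0.23 (SE 0.10; edgeR unadjusted p = 0.0467, adjusted p = 0.841). Zfp191, a SCAN zinc finger gene needed for myelination, averaged 22.1 ± 1.95 CPM without and 25.2 ± 2.85 CPM with the drug (log2 fold change 0.19, SE 0.09). Of 10 oligodendrocyte genes, 4 had fold changes above 0, and their sum ran from 7575 to 14577 CPM without drug and from 8989 to 16457 CPM with it. Zfp91, a ubiquitin ligase of the non-canonical NF-kappaB pathway, averaged 236.8 ± 19.3 CPM without and 264.7 ± 28.2 CPM with the drug (log2 fold change 0.16, SE 0.09). Log2 fold changes were 0.24 for Zfp438 (SE 0.14), 0.15 for Zfp458 (SE 0.09), 0.15 for Zfp2 (SE 0.09) and 0.13 for Zfp426 (SE 0.08), none of which had an unadjusted edgeR p under 0.05. Zfp438 was at 0.14 without untreated replicate 2, and Zfp2 at 0.04 in limma-voom.

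Zfp978 had the highest fold change of all members, a log2 value of 0.44 (SE 0.23), at few reads. It was at 1.67, 1.08, 1.55, 0.857 and 0.814 CPM in untreated and at 1.61, 1.59, 1.73, 1.57 and 1.59 CPM in RG2833 rats, a total of 234.5 counts. RefSeq lists Zfp978 as a synonym of Zfp772, which has its own line in the table, and the counts of both were fractional in all 10 libraries, so both values are uncertain. Zfp772 averaged 9.84 ± 0.57 CPM without and 9.65 ± 1.01 CPM with the drug. The members just inside the filter on low counts were Zfp93, Zfp7 and Zfp819, with totals of 125.8, 154 and 226 counts over 10 libraries. Zfp93 and Zfp819 had the lowest log2 fold changes of all members, -0.50 (SE 0.59) and -0.46 (SE 0.24). The value of Zfp93 ran from -1.19 to 0.00023 over the settings tried.

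The strongest shared pattern of the members divided rats within both groups. The first principal component of the 163 genes held 43.7% of their variance. Its scores were 3.64 in untreated replicate 3, 1.86 in RG2833 replicate 4 and 1.69 in RG2833 replicate 5, and ran from -1.29 to -0.47 in the other 7 libraries. Of the 7 genes with the largest weights, Zfp93 has few reads, and the values of the other 6 follow. They were picked after their values were seen.

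Of these 6 genes, 3 were low in the same 3 rats. Zfp189, which codes for a KRAB zinc finger protein studied in stress resilience of cortical neurons, was at 55.2, 59.0, 13.4, 37.2 and 52.3 CPM in untreated rats. In RG2833 rats it was at 43.6, 53.3, 48.9, 31.6 and 22.4 CPM. Untreated replicate 3 and RG2833 replicates 5 and 4 were the lowest libraries. Zfp238, a repressor that cortical neurons need to mature, was at 260.2, 271.2, 113.4, 233.0 and 284.6 CPM in untreated and at 255.0, 245.3, 286.6, 156.4 and 167.6 CPM in RG2833 rats. The same 3 libraries were lowest, as they were for Zfp667, at 14.9, 17.9 and 15.8 CPM against 21.7 to 28.9 CPM.

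The other 3 genes were highest in those rats. Zfp36, tristetraprolin, which binds AU-rich elements and speeds the decay of inflammatory mRNAs, was at 14.9, 16.4, 30.4, 13.8 and 10.6 CPM in untreated rats. In RG2833 rats it was at 12.8, 18.3, 13.7, 20.3 and 28.6 CPM. Zfp365, whose product binds the scaffold protein Disc1, was at 388.9, 361.6 and 441.7 CPM in these 3 libraries and from 183.9 to 275.3 CPM in the others. Zfp423, a partner of EBF and SMAD factors in neural progenitors, was at 105.1, 86.7 and 71.6 CPM in them and from 43.7 to 66.8 CPM in the others. Between groups, log2 fold changes were -0.12 for Zfp189 (SE 0.36), -0.07 for Zfp238 (SE 0.25), 0.12 for Zfp36 (SE 0.30), 0.25 for Zfp365 (SE 0.25) and 0.12 for Zfp423 (SE 0.23), each smaller than its error. The signs for Zfp189, Zfp238 and Zfp36 changed when single libraries were left out: Zfp36 was at -0.08 without RG2833 replicate 5 and 0.43 without untreated replicate 3. Those 2 omissions gave 0.03 and -0.35 for Zfp189, and 0.07 and 0.45 for Zfp365. Leaving out untreated replicate 5 gave 0.01 for Zfp423, and leaving out untreated replicate 3 gave 0.38.

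Some marker lists were highest in the same 3 libraries and others were not. The 6 neocortical genes summed to 284.4, 250.5 and 280.0 CPM in untreated replicate 3 and RG2833 replicates 4 and 5, against 145.5 to 219.0 CPM in the others. Cux2 made up much of this, with 140.9, 92.4 and 106.2 CPM against 28.3 to 59.9 CPM, whereas Fezf2 was lowest of all in untreated replicate 3 (20.8 CPM) and Lamp5 in RG2833 replicate 5 (42.5 CPM). The 10 microglial genes summed to 1126, 857 and 914 CPM, against 612 to 740 CPM. The 9 endothelial genes summed to 656.6, 592.1 and 748.7 CPM, against 338.3 to 552.1 CPM. The 10 astrocyte genes summed to 10740, 11641 and 11812 CPM, against 6912 to 10223 CPM. The sums of other lists did not follow this order. The 8 neuronal genes summed to 4652, 5293 and 5393 CPM in these 3 libraries, against 5009 to 6205 CPM. Snap25, Nefl, Nefm, Syt1, Rbfox3 and Stmn2 were each lowest in them. Snap25, for example, was at 1385, 1590 and 1648 CPM against 1946 to 2366 CPM. Map2 was highest in them, at 1657, 1893 and 2044 CPM against 859.8 to 1624 CPM, and Tubb3 had neither order. The 10 oligodendrocyte genes summed to 7575 CPM in untreated replicate 3, the lowest of all, and to 16457 CPM in RG2833 replicate 5, the highest. The dentate granule cell genes had their lowest sum in untreated replicate 3, at 222.9 CPM against 247.2 to 393.6 CPM. There C1ql2 was at 7.10 CPM against 38.2 to 142.0 CPM, and Prox1 at 4.30 CPM against 21.5 to 50.5 CPM. Prox1 was next lowest in RG2833 replicates 4 and 5, at 21.5 and 23.2 CPM. Stxbp6 and Rfx3 were also lowest in untreated replicate 3. Calb1 was highest there, at 90.6 CPM, and Pdzd2 was at 87.0 CPM against 36.3 to 93.1 CPM. The CA3 genes summed to 759.8 CPM in untreated replicate 3 and 739.7 CPM in RG2833 replicate 5, against 919.6 to 1296 CPM in the others, RG2833 replicate 4 included. Nnat made up much of the sum in RG2833 replicate 4, at 724.8 CPM, its highest value. Bok, Grik4 and Cpne4 were each lowest in all 3 libraries. Bok was at 34.0, 43.3 and 38.9 CPM against 72.5 to 92.7 CPM. Grik4 was at 29.5, 77.7 and 59.1 CPM against 99.8 to 137.3 CPM, and Cpne4 at 66.3, 119.9 and 73.9 CPM against 222.0 to 287.5 CPM. Spock1 was lowest in untreated replicate 3, followed by untreated replicate 2. All genes of the neocortical, microglial, endothelial and astrocyte lists were tested except 1 endothelial gene that was not in the table. The part of any of these lists in the levels of the Zfp genes was not tested.

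**Figure D5:**
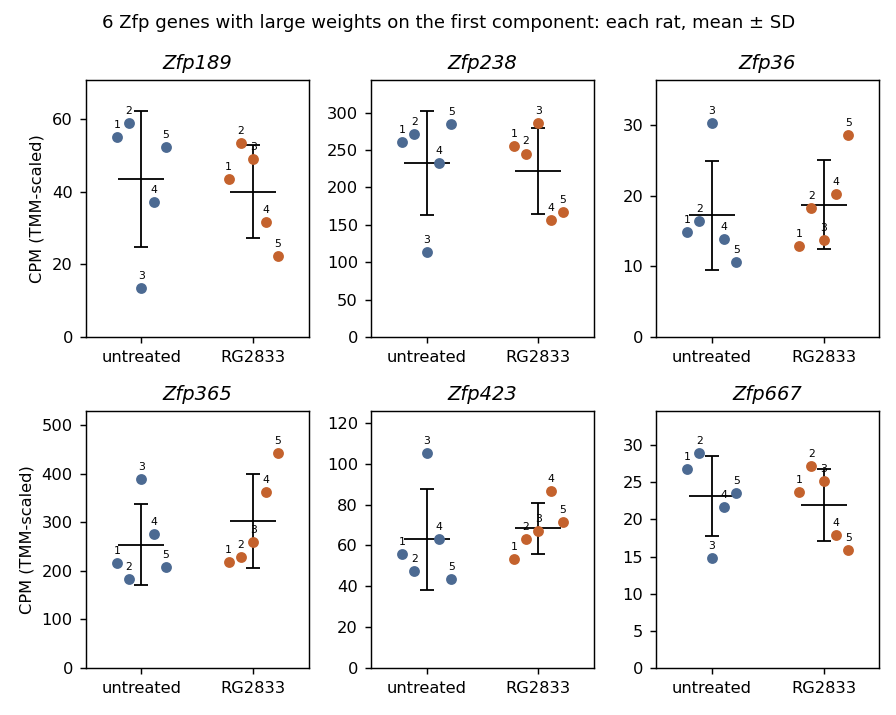
CPM (vertical axes, from 0) of Zfp189, Zfp238, Zfp36, Zfp365, Zfp423 and Zfp667 in each rat, numbered by replicate, in untreated and RG2833 rats; the line and bars are the mean ± SD (n = 5 each). Untreated replicate 3 and RG2833 replicates 4 and 5 sit low for Zfp189, Zfp238 and Zfp667 and high for Zfp36, Zfp365 and Zfp423.

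By known role, groups of 2 to 13 members held 0 or 1 gene with an unadjusted p under 0.05, where 5.66% of all genes had one; this grouping was made with the values known. Pairs of means are given as untreated, then RG2833. Of 8 genes of transcription and chromatin, 7 had a log2 fold change below 0 (median -0.06), where 64.4% of all Zfp genes had, and Zfp281 was the one with such a p. The signs for Zfp217, Zfp746 and Zfp238 changed when single libraries were left out. In this group Zfp384 was at 33.1 ± 4.32 and 31.1 ± 1.75 CPM. Zfp410, an activator of the NuRD gene Chd4, was at 24.7 ± 1.88 and 23.6 ± 1.39 CPM, and Zfp746, a repressor of the PGC-1alpha gene, at 26.5 ± 2.39 and 25.9 ± 1.53 CPM. Zfp410 and Zfp746 differed by less than the SD of either group, and Zfp384 by less than that of the untreated rats only. Zfp217, a partner of the CoREST complex, was highest in the 2 libraries rich in choroid plexus RNA. It had 5.48 CPM in untreated replicate 2 against 2.71 to 3.28 CPM in the rest of that group, and 4.84 CPM in RG2833 replicate 1 against 2.42 to 3.20 CPM. The part of choroid plexus RNA in these levels was not tested.

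The 2 members that keep imprints differed between groups by less than the spread between rats. Zfp57 was at 14.0 ± 1.26 and 13.8 ± 1.36 CPM, with counts fractional in all 10 libraries, and Zfp445 at 73.6 ± 7.14 and 73.9 ± 4.81 CPM; their log2 fold changes were -0.02 (SE 0.09) and 0.01 (SE 0.08). Of the 4 genes of neural development, all had fold changes above 0, from 0.01 for Zfp521 to 0.12 for Zfp423. Zfp521, the paralog of Zfp423, was at 16.5 ± 3.82 and 16.5 ± 0.46 CPM, Zfp503 at 9.71 ± 0.78 and 10.0 ± 1.74 CPM, and Zfp703 at 35.4 ± 6.37 and 36.6 ± 6.43 CPM. The signs for Zfp521 and Zfp503 changed when single libraries were left out.

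Of the 8 members that act on RNA, ribosomes, the spindle or ubiquitin-like modifiers, 4 were below and 4 above 0. Zfp451, a SUMO ligase, averaged 17.4 ± 1.70 CPM without and 16.0 ± 1.25 CPM with the drug (log2 fold change -0.12, SE 0.09). Zfp207 was at 59.8 ± 4.90 and 57.6 ± 2.03 CPM, Zfp598, which senses collided ribosomes, at 36.0 ± 4.54 and 35.1 ± 2.27 CPM, and Zfp638, which binds RNA, at 94.6 ± 10.3 and 97.0 ± 6.65 CPM. Of 13 members with a SCAN domain, which pairs such proteins with each other, 9 were below and 4 above 0 (median -0.04). They ran from -0.24 for Zfp498 to 0.19 for Zfp191.

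Directly neighbouring members shared a direction in some runs and not in others. Of 162 members placed in GRCr8, 39 formed 17 runs of directly adjacent protein-coding genes, the longest with 4 members. In 6 runs all members had log2 fold changes below 0, in 3 all were above 0, and 8 were mixed. Of the 39 members in runs, 24 were below 0, where 64.4% of all tested Zfp genes were. The 4 neighbours Zfp26, Zfp426, Zfp266 and Zfp846 had values of -0.08, 0.13, -0.07 and 0.03. The pair of Zfp61 and Zfp94 was the one run in which more than 1 member had an unadjusted p under 0.05. Zfp692 and its neighbour Zfp672 had values of -0.38 and -0.05.

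Among the genes that work with KRAB zinc finger proteins, Setdb1 and Mphosph8 had the smallest p. All 30 genes of this set that were in the table were tested; 0 passed the adjustment in edgeR, 2 were lower and 0 higher at an unadjusted p under 0.05, and 19 had fold changes below 0 (median -0.03), where the shares over all genes were 2.71% lower, 2.94% higher and 53.5% below 0. Setdb1, the histone methyltransferase, was at 43.2, 41.4, 40.4, 41.4 and 41.7 CPM in untreated and at 39.2, 36.9, 39.2, 39.1 and 38.0 CPM in RG2833 rats. Its groups did not overlap, as for 0.584% of all genes in this direction, with a log2 fold change of -0.11 (SE 0.05; edgeR unadjusted p = 0.0305, adjusted p = 0.841; exact permutation p = 0.00794). Mphosph8, a subunit of the HUSH silencing complex, was at 81.9, 78.0, 72.3, 79.6 and 79.3 CPM in untreated and at 66.2, 75.6, 72.7, 65.5 and 63.1 CPM in RG2833 rats. Untreated replicate 3 lay among the treated values, and the log2 fold change was -0.19 (SE 0.06; edgeR unadjusted p = 0.0139, adjusted p = 0.841). Trim28, the scaffold, averaged 149.6 ± 15.8 CPM without and 141.9 ± 6.83 CPM with the drug (log2 fold change -0.08, SE 0.08; -0.03 without untreated replicate 2 and -0.12 without untreated replicate 3), and its groups overlapped.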

How the data were processed

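Strand-specific mRNA libraries of 10 hippocampi were sequenced, 1 per rat. The authors deposited expected counts per gene, made with Bowtie2 2.1.0 and RSEM 1.2.15 on build rn6, per the submitters' processing notes; the annotation and any filter are not given in the sources used here. Of these values 11.6% were not whole, and counts were fractional for 62 of 164 Zfp genes. The second deposited table holds the authors' TMM-scaled signal, proportional to CPM. Divided by the step of 1 read, 100% of its values came out whole (tolerance 0.01 read); edgeR on these reads, an alternative chosen after seeing the data, gave 0 adjusted calls, and 7 lower and 1 higher Zfp genes at an unadjusted p under 0.05, against 2.71% and 2.94% of all genes.

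Rounded expected counts went into edgeR 4.0.16 (R 4.3.3). The filter filterByExpr (minimum count 10, total 15) kept 12161 genes. After TMM scaling, a robust quasi-likelihood fit gave the contrast of RG2833 over untreated, and Benjamini-Hochberg adjustment covered every gene tested (threshold 0.05). Standard errors came from the F statistic; CPM are on the TMM-scaled library size, and deviations and components used log2 CPM with a prior count of 2. The exact permutation test was two-sided over 252 regroupings. P-values measure the spread between these rats. No 2 libraries were alike within counting noise (chi-square per gene at least 7.43 over 45 pairs). In simulated data, 48% of 200 genes changed 1.5-fold were recovered among 12093 genes, and 82% of 200 changed 2-fold among 12116.

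The Zfp genes, the gene lists and the naming rule were chosen with earlier results of these data known. The rule names the 8 members with the smallest p in each direction, members whose groups do not overlap, members near the filter and a list of members with known roles. Other members named (Zfp238, Zfp667, Zfp703, Zfp143, Zfp772, Zfp498 and those listed by box or neighbourhood), the roles and the promoter letters were chosen after their values were seen, and the letters of 2 motifs were shortened after longer forms had been searched. A planned division by KRAB box was not made, since no protein sequences were used here. Alternatives were other scalings, filters, DESeq2 1.42.0, limma-voom (limma 3.58.1), a replicate block and leaving out libraries.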

Additional observations from a re-analysis of the deposited data

Results flagged for a closer look

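Each of 80 sets of 5 values (33 named Zfp genes, Zfp238 and the 3 genes nearest the filter on low counts in each group, and 3 measures over all Zfp genes) was searched for a rat whose gap to its nearest neighbour exceeded 0.71 of the range of its group. There were 8 such sets, where chance gives about 1 in 20, or 4. Untreated replicate 3 was high for Zfp61, at 30.0 CPM against 17.7 to 20.4 CPM (gap 0.781), and for Zfp692, at 19.3 against 10.2 to 11.8 CPM (0.828). It was also high for Zfp93, at 1.91 against 0.462 to 0.706 CPM (0.831), a gene with few reads, as is Zfp7, for which untreated replicate 4 was high, at 1.29 against 0.717 to 0.866 CPM (0.739). Untreated replicate 2, one of the pair rich in choroid plexus RNA, was high for Zfp217, at 5.48 against 2.71 to 3.28 CPM (0.794); RG2833 replicate 1, the other of the pair, was also highest of its group, at 4.84 against 2.42 to 3.20 CPM, within the limit. RG2833 replicate 4 was low for Zfp426, at 11.4 against 12.8 to 13.2 CPM (0.776). Zfp451 met the limit in both groups: untreated replicate 5 was low, at 14.4 against 17.8 to 18.6 CPM (0.811), and RG2833 replicate 1 was high, at 18.2 against 15.3 to 15.9 CPM (0.788).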

How the results depend on the processing

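With 19 alternatives, 0 Zfp genes passed the adjustment in any. The median log2 fold change of the Zfp genes stayed between -0.0485 and -0.0167, and the share below 0 between 57.7% and 66.9%. At an unadjusted p under 0.05, limma-voom with sample weights gave 13 lower and 3 higher Zfp genes, against 4.42% and 5.97% of all genes. Without the 2 libraries rich in choroid plexus RNA, 0 were higher and 6 did not overlap between groups (3.68%, against 3.27% of all genes); without a filter, 1 did not overlap (0.613% against 0.908%). Leaving out 1 library at a time gave 3 to 10 lower, 0 to 5 higher and 2 to 7 not overlapping. The members not overlapping were 7 without untreated replicate 3 (4.29%, against 4.71% of all genes), 5 without untreated replicate 1 or 2 (3.07%, against 1.94% and 1.67%) and 4 without RG2833 replicate 1 (2.45%, against 2.34%). The replicate numbers gave no sign of pairing: same-numbered libraries had correlations from -0.49 to -0.03, 0 of 5 above 0.1. These values cannot exclude a pairing, since they also carry every other difference between libraries. With the numbers as a replicate block, 2 were lower and 0 higher, against 1.37% and 1.92% of all genes.

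Of 40 genes followed, including 3 corepressor genes, 27 kept their sign throughout. In limma-voom the log2 fold change turned to 0.13 for Zfp217, -0.021 for Zfp445, -0.047 for Zfp503, 0.014 for Zfp598 and -0.072 for Zfp7. It was -0.00014 for Zfp445 with upper-quartile scaling and 0.031 for Zfp217 without the choroid plexus pair. Leaving out 1 library gave ranges that crossed 0; the cause was not tested. They were -0.077 to 0.425 for Zfp36, -0.074 to 0.032 for Zfp57, -0.346 to 0.035 for Zfp189, -0.198 to 0.203 for Zfp217, -0.051 to 0.044 for Zfp445, -0.043 to 0.096 for Zfp503, -0.086 to 0.107 for Zfp521, -0.077 to 0.030 for Zfp598, -0.027 to 0.071 for Zfp638, -0.066 to 0.016 for Zfp746, -0.237 to 0.042 for Zfp238, -1.19 to 0.00023 for Zfp93 and -0.11 to 0.337 for Zfp7. Among genes that kept their sign, the settings spanned -0.115 to -0.017 for Zfp148, -0.094 to -0.022 for Zfp207, -0.095 to -0.021 for Zfp410, -0.124 to -0.017 for Zfp384, -0.180 to -0.057 for Zfp451, 0.102 to 0.201 for Zfp91, 0.142 to 0.290 for Zfp438 and 0.041 to 0.219 for Zfp2. Counts per gene limit Zfp93, Zfp7 and Zfp819 most.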
